A study of Mus musculus with 16 samples.

Results

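The Igf2/H19 imprinted domain was described here as the 150 kb of mouse chromosome 7 from 149720000 to 149870000 (mm9). Acetylation of lysine 27 on histone H3 (H3K27ac), a mark of active promoters and enhancers, had been mapped by chromatin immunoprecipitation and sequencing (ChIP-seq). The members are the peaks of the 8 deposited peak lists that overlap this interval by at least 1 bp, 78 of 369142 peaks in all. The domain was chosen by its covered length in these same lists, which was long in the embryo and near 0 in the adult, so that difference is described without a test. H19 lies within 149761000 to 149764000 and Igf2 within 149836000 to 149853000 by the coordinates that define the domain.

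The libraries came from small-intestinal epithelium of mice on a mixed C57BL/6 CD1 background, with 2 ChIP libraries and 2 input libraries in each of 4 groups. The embryonic groups, E12.5 and E14.5, are named for the day of gestation. Their epithelial cells were sorted as EpCAM-positive, CD31-negative, CD45-negative and DAPI-negative, that is, as live cells with an epithelial surface protein and without markers of endothelium or leukocytes. Both adult groups were taken at postnatal day 60 (P60) from Lgr5EGFP-Cre-ERT males, which carry a green fluorescent reporter and an inducible Cre recombinase at Lgr5, a stem cell gene. Lgr5+ intestinal stem cells (ISC) were the cells of the crypts with high reporter signal, and enterocytes, the absorptive cells, were sorted from villi. The labels give neither the sex nor the genotype of the embryos and do not say whether animals were pooled. The sorted identities were not checked against marker genes, because positions of genes on mm9 were not used here beyond the 2 intervals above. The series calls the libraries of a group biological duplicates.

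Igf2 encodes insulin-like growth factor 2, a fetal growth factor expressed mainly from the paternal chromosome. H19 is an abundant fetal non-coding RNA expressed from the maternal chromosome and the host of miR-675, while Igf2 hosts miR-483. A differentially methylated control region upstream of H19 binds the insulator protein CTCF on the maternal chromosome and keeps Igf2 from enhancers that lie on the far side of H19, among them the enhancers used in endoderm. The lists do not separate the parental chromosomes, and fewer acetylated cells cannot be told apart from less acetylation per cell.

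In the RefSeq table of GRCm38.p6 the order along the chromosome is Mrpl23, Nctc1, H19, Mir675, Igf2, Mir483, Igf2os and Ins2, with Gm33148 between Mir675 and Igf2. Mir675 and the Igf2 promoters are on the minus strand, so the upper end of each interval is the 5′ end of its gene. The mature microRNAs of both hosts are given because microRNAs can act on other transcripts, which was not tested here. They are from RefSeq (GRCm38.p6), 5′ to 3′, and the capitals mark the seed, bases 2 to 8. The 4 seeds differ from one another.
mmu-miR-675-5p: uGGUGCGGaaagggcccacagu
mmu-miR-675-3p: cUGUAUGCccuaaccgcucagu
mmu-miR-483-5p: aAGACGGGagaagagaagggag
mmu-miR-483-3p: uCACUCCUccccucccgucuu

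RefSeq lists 4 promoters of Igf2, each given as 300 bases from 250 before to 50 after the start. In 5′ to 3′ order of the gene they hold 2, 14, 24 and 7 CpG dinucleotides, against a median of 7 over 32851 promoters of the same length. The last 2 are shown, since they were the ones that held a searched motif. The motifs were the GC box GGGCGG, the TATA box TATAAA and the CCAAT box CCAAT, on both strands, and no match overlapped another. Promoter 3 (GRCm38.p6, chr7:142658755-142659054, minus strand) has 1 GC box, and promoter 4 (chr7:142657447-142657746, minus strand) has 2 GC boxes and 1 CCAAT box, shown in capitals. Of all promoters, 35.7% hold a GC box, 37.4% a CCAAT box and 13.6% the TATA motif, which none of the 4 has in these windows. These positions are on another build than the peaks and were not set against them.
Igf2 promoter 3: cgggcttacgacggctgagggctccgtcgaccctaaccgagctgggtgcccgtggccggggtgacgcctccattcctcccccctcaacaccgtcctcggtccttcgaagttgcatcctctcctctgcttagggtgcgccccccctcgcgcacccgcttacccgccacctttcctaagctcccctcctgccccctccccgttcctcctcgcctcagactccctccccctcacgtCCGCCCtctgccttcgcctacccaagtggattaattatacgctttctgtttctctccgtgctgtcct
Igf2 promoter 4: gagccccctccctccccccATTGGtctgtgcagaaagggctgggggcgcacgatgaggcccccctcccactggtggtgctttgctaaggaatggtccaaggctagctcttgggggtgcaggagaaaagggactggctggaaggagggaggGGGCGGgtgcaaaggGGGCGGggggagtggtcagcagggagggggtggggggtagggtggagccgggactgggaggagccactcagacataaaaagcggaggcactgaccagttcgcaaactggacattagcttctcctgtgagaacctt

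Peaks covered 34.6 to 43.4% of the domain in the embryonic libraries and almost none of it in the adult ones. They covered 51.96 and 59.1 kb at E12.5, from 18 peaks in each library. At E14.5 they covered 65.14 kb from 19 peaks and 61.24 kb from 21. The E12.5 mean was 55.5 ± 5.05 kb and the E14.5 mean 63.2 ± 2.76 kb (SD, n = 2), which is 37.0% and 42.1% of the 150 kb. ISC replicate 1 and enterocyte replicate 2 had no peak in the domain. ISC replicate 2 had 99 bp of a peak that crosses the lower border, and enterocyte replicate 1 had a single peak of 309 bp. The embryonic and adult libraries therefore did not overlap in covered length, as the choice of the domain required.

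The E12.5 libraries held 37.9 and 40.4 M ChIP tags and the E14.5 libraries 38.6 and 54.6 M. Among the adult libraries, those of ISC held 40.4 and 42.1 M and those of enterocytes 42.2 and 34.6 M. The deepest library was thus embryonic and the shallowest adult, and the part of depth in the covered length was not tested. The lists held 35614 to 52510 peaks covering 38.8 to 76.1 Mb, and both enterocyte lists were the shortest. When every list was cut to the number of peaks of the shortest by −log10 q, the E12.5 peaks still covered 53.5 kb of the domain and the E14.5 peaks 59.6 kb, and the adult means did not move.

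**Figure D1:**
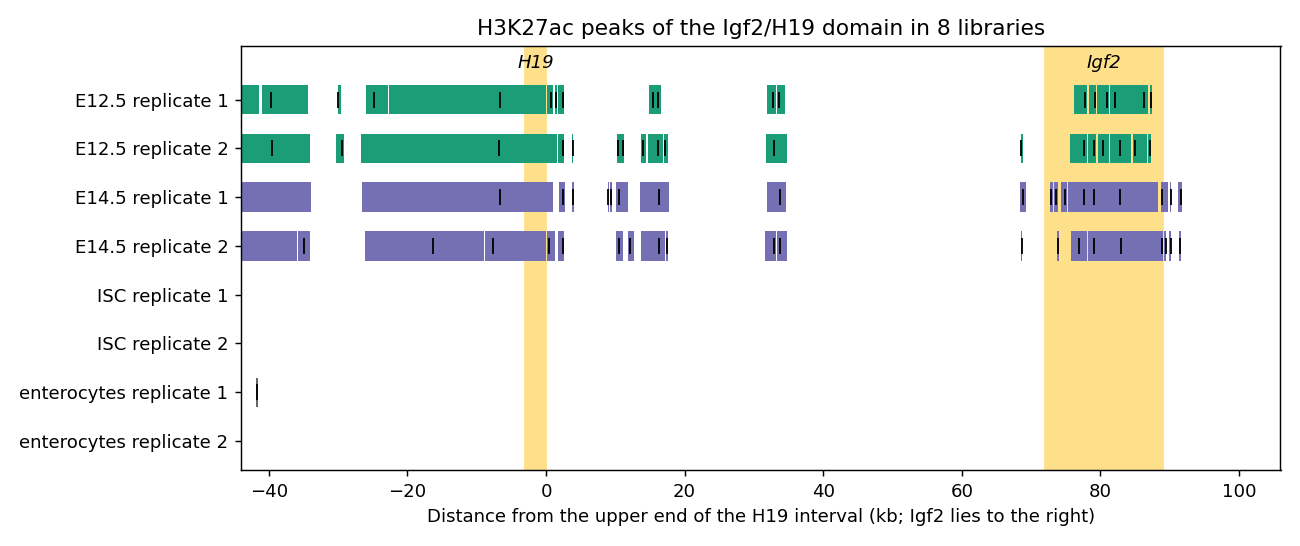
Peaks (boxes) and summits (ticks) of the 8 libraries across the domain, against the distance in kb from the upper end of the H19 interval, with the H19 and Igf2 intervals shaded. The 4 embryonic rows share their long blocks, and the adult rows hold only the 309 bp peak of enterocyte replicate 1, the 99 bp of ISC replicate 2 at the left border being too short to see.

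Acetylation was unevenly spread among the parts of the domain (the plot of covered length by segment). The 41.0 kb below H19, on its 3′ side, were covered over 32.61 and 34.79 kb at E12.5 and over 33.53 and 33.0 kb at E14.5. This side, where the shared enhancers are known to lie, was thus 81.7% covered on average over the 4 embryonic libraries. The H19 interval of 3.0 kb was covered from end to end in all 4. The 72.0 kb between H19 and Igf2 were 13.7% covered on average, with 6.155 and 10.42 kb at E12.5 and 12.07 and 10.89 kb at E14.5. The Igf2 interval of 17.0 kb held 10.2 and 10.89 kb at E12.5 and 15.11 and 13.37 kb at E14.5. No peak lay in the 17.0 kb beyond Igf2 at E12.5, while 1.425 and 0.983 kb were covered at E14.5. As deposited, the values of the 2 stages did not overlap in the domain as a whole, between H19 and Igf2, in the Igf2 interval or beyond it. They were higher at E14.5 in each. In the segment below H19 they overlapped, and in the H19 interval they were equal. These lengths take no account of the total length that each list covers. Of that total, the domain made up 0.119 and 0.0985% at E12.5 and 0.1 and 0.108% at E14.5, so by this share the stages overlapped. The share was not computed for the segments, and how often other loci separate the stages was not counted.

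**Figure D2:**
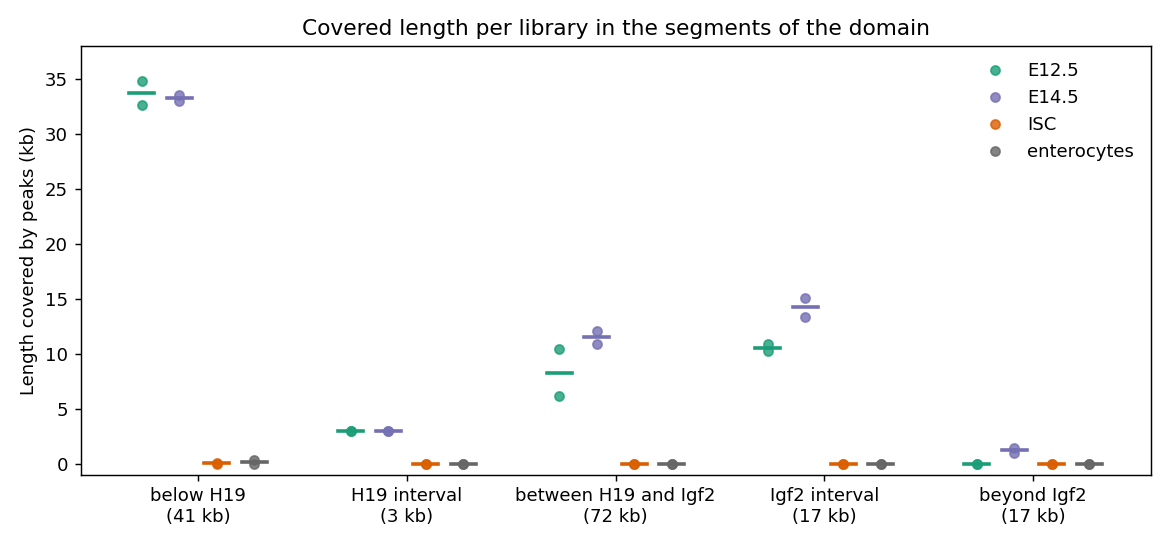
Length covered by peaks (kb) in the segments of the domain, with 1 point per library and a line at the mean of each group (n = 2). Embryonic points are highest below H19, at 32.61 to 34.79 kb, and no adult point exceeds 0.309 kb.

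The peaks of the 8 lists merged into 21 regions in the domain. Of these, 8 were present in all 4 embryonic libraries, 2 in 3 of them, 6 in 2 and 5 in 1. Base by base, 46.0% of the domain lay under a peak of at least 1 embryonic library, and 50.67 kb, or 73.4% of that length, lay under peaks of all 4. The Jaccard index, the length that both libraries cover divided by the length that at least 1 covers, was 0.869 for the E12.5 replicates and 0.88 for the E14.5 replicates, and 0.775 to 0.861 for libraries of different stages. The 4 embryonic profiles thus had most of their acetylated length in common. The regions present in all 4 embryonic and no adult library numbered 7. Over the genome, 5.08% of 79482 merged regions had that pattern, which is the pattern the domain was chosen for.

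H19 lay inside the longest region, from 149737366 to 149765568 (28.2 kb). Its peaks covered 27.01 and 28.2 kb at E12.5 and 27.55 and 27.12 kb at E14.5, and 0 kb in each adult library. In E12.5 replicate 2 a single peak of 28203 bp spanned it, and in E14.5 replicate 1 a single peak of 27549 bp covered nearly all of it. Each was the second longest peak of its list, as was the 22698 bp peak of E12.5 replicate 1. In E14.5 replicate 2 the block was cut into peaks of 17245, 8836 and 1044 bp. The region ran from −26.63 to 1.568 kb relative to the 5′ end of the H19 interval, so that most of it lay on the 3′ side of the gene.

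The summit of its strongest peak was not over H19 itself. The strongest peak of the region by −log10 q had its summit between 149756292 and 149757401 in the 4 libraries, at −7.71 to −6.6 kb from the 5′ end of the H19 interval and so beyond its 3′ end. Enrichment over the local background, the authors' value for the peak, was 18.9- and 19.73-fold in the E12.5 lists and 24.63- and 22.72-fold in the E14.5 lists. Folds belong to their own list and are not compared between libraries. By −log10 q these peaks stood at the 97.1st to 99.9th percentile of their lists, where the percentile is the share of the list's peaks with a lower value.

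A short region upstream of H19 had the most closely placed summits of the 8 regions found in all 4 embryonic libraries. It ran from 149765670 to 149766680, and its peaks measured 0.848 and 0.979 kb in the E12.5 libraries, 0.84 and 0.878 kb in those of E14.5 and 0 kb in the adult ones. The 4 summits lay within 24 bp, from 149766470 to 149766494, which is 2.47 to 2.49 kb above the 5′ end of the H19 interval. Its peaks were of middling rank, at the 49.7th to 66.9th percentile of −log10 q. The control region also lies a short way upstream of H19, but its mm9 position is not marked in the lists and was not compared with this summit.

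The stretch between the genes held a few separate regions. One from 149777578 to 149781693 had 1.628 and 3.31 kb at E12.5 and 4.116 and 3.766 kb at E14.5, with main summits within 174 bp of one another. Another from 149795599 to 149798757 had 2.547 and 2.993 kb at E12.5 and 2.827 and 3.033 kb at E14.5, with values of the stages overlapping. Both stood high in their lists, with their strongest peaks at the 70.2nd to 85.1st percentile of −log10 q in the first and the 84.5th to 92.0th in the second. A region from 149774052 to 149775766 was absent from E12.5 replicate 1 and measured 0.95 kb in replicate 2, against 1.715 and 1.024 kb at E14.5. A weak one from 149832427 to 149833242, below the 3′ end of Igf2, was likewise absent from E12.5 replicate 1. The other 4 regions between the genes, each 0.226 to 0.895 kb long, were found in 1 or 2 libraries. The longest stretch without a peak in any embryonic library ran for 33.67 kb, from 149798758 to 149832426.

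Igf2 held 3 regions common to the 4 embryonic libraries. The largest, from 149843530 to 149852598, had 7.249 and 7.324 kb at E12.5 and 8.849 and 9.069 kb at E14.5. As deposited, the stages did not overlap in this region. Next to it, a region from 149842239 to 149843470 had 1.062 and 1.131 kb at E12.5 and 1.217 and 1.205 kb at E14.5, and its summits lay within 50 bp, from 149843131 to 149843181. The third, from 149839344 to 149842182 on the 3′ side, had 1.884 and 2.433 kb at E12.5 and 2.839 and 2.406 kb at E14.5, and here the stages overlapped. Gaps of only 56 and 59 bp, free of peaks in every library, separated these 3 regions. Their strongest peaks reached the 88.4th percentile of a list, below the strongest peak of the H19 region in all 4 lists. Besides these, E14.5 replicate 1 alone had 2 weak regions at the 3′ end of the interval, of 0.427 and 0.849 kb.

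**Figure D3:**
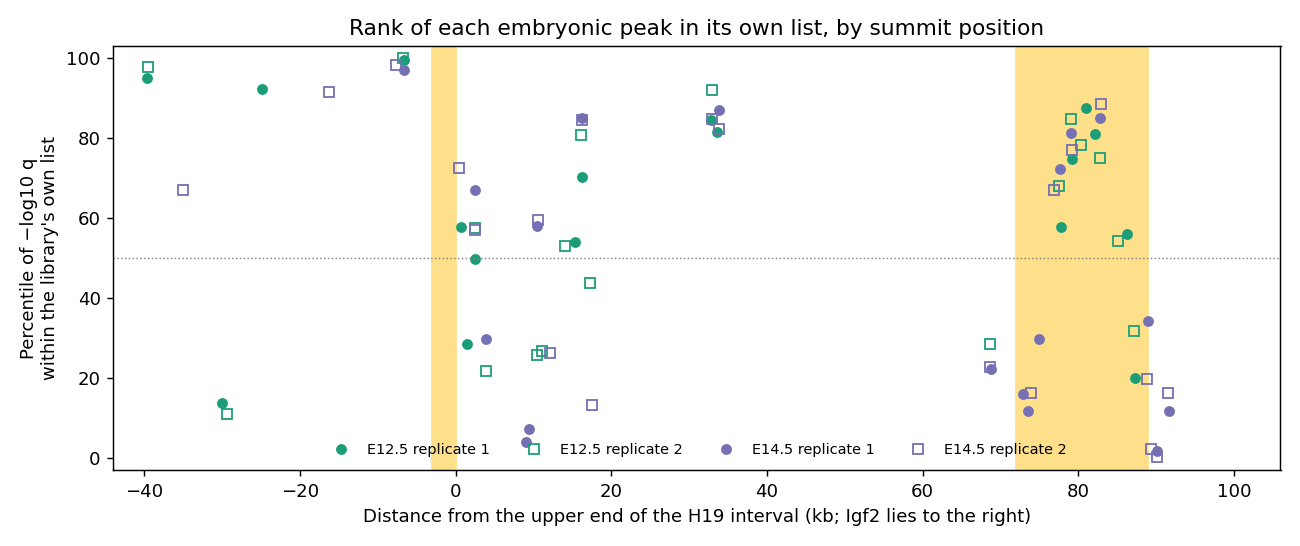
Percentile of −log10 q (y axis) of each embryonic peak whose summit lies in the domain, within the list of its own library. The x axis is the distance of the summit in kb from the upper end of the H19 interval. H19 and Igf2 are shaded and the list median is dotted. Peaks with summits below the lower border, among them the E14.5 replicate 1 peak at the 97.2nd percentile, are not shown. The highest ranks lie to the left of H19, at the 97.1st to 99.9th percentile, and the 2 ends of the Igf2 interval hold peaks under the median.

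At the median, the peaks of the domain were longer than those of their lists, and they were not uniformly strong. The domain's median peak was 1273.5 and 1167 bp at E12.5 and 849 and 1044 bp at E14.5, against 607, 684, 753 and 714 bp over the respective lists. The domain was chosen by covered length, so longer peaks go with that choice. Lengths varied too, down to the 1.13th percentile of length in E14.5 replicate 1. Under the list median of −log10 q were 4 and 7 of the 18 peaks at E12.5, 10 of 19 in E14.5 replicate 1 and 8 of 21 in replicate 2. In the top 5% of their list by −log10 q were 2 peaks in each of E12.5 replicate 1, E12.5 replicate 2 and E14.5 replicate 1, and 1 in E14.5 replicate 2. The plot of ranks by summit position shows the weak peaks at the outer ends of Igf2 and in the gaps beside H19.

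The adult epithelium kept 1 acetylated site at the lower border. All 4 adult libraries had a peak over 149719032 to 149719701, which ends 298 bp below the domain. These peaks were 795 and 1332 bp long in ISC and 670 and 761 bp in enterocytes, and their summits lay within 80 bp, from 149719214 to 149719294. The peak of ISC replicate 2 reached 99 bp into the domain, and it is the one adult ISC member. All 4 embryonic libraries covered the same 670 bp within a longer region from 149704557 to 149730038, of which peaks covered 22.05 and 24.89 kb at E12.5, and 24.24 and 23.26 kb at E14.5. In it the adult peaks covered 0.795 and 1.332 kb in ISC, and 0.979 and 0.761 kb in enterocytes. The summit of the embryonic peak with the highest −log10 q in that region fell inside these 670 bp in both E14.5 libraries. In the E12.5 libraries it fell at 149724370 and 149724498. E12.5 replicate 1 also had a separate peak with its summit inside the 670 bp, at 149719416, at the 89.0th percentile of −log10 q. In E12.5 replicate 2 a single peak from 149717294 to 149729949 covered both places.

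From that site upward the adult lists were empty across H19 and Igf2. The stretch without any peak around H19 measured 391.8 and 391.5 kb in ISC, and 515.9 and 434.2 kb in enterocytes. Much of it lay above the domain, where the nearest peak was 241.6 kb away in both ISC libraries and 368.3 and 283.9 kb in enterocytes. The embryonic libraries were also empty there for 185.6 and 30.83 kb at E12.5 and 209.6 and 243.6 kb at E14.5. The single enterocyte peak in the domain, from 149722084 to 149722392, had a −log10 q of 4.88 and stood at the 16.9th percentile of its list. A list records only what passed the threshold of q = 0.05, so acetylation under that threshold would not be seen in it.

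The flanks of equal length showed an end of the embryonic acetylation on the upper side only. Below the domain, 35.09 and 44.7 kb of 150 kb were covered at E12.5 and 29.34 and 24.41 kb at E14.5. The adult values there were 1.962 and 3.362 kb in ISC and 1.84 and 1.984 kb in enterocytes. Above the domain there was no peak except 0.406 kb in E12.5 replicate 2. The embryonic block thus extended below the lower border and ended above Igf2.

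The domain was set beside the rest of the genome in tiles of 150 kb. The tiles were laid so that a tile matched the domain, while other loci were cut wherever the grid fell, which favours the domain. Among the 10399 tiles with a peak in any library, the domain had rank 5 by mean embryonic covered length, at 59.4 kb over 4 libraries. The median tile had 2.791 kb in the embryonic and 1.997 kb in the adult libraries. The other 4 tiles, ranked above it, had at least 23.7 kb of peaks in the adult libraries, where the domain had a mean of 0.102 kb. By the embryonic minus the adult length the domain had rank 1, at 59.3 kb, and the next tile had 55.0 kb. These ranks describe the choice and carry no test.

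**Figure D4:**
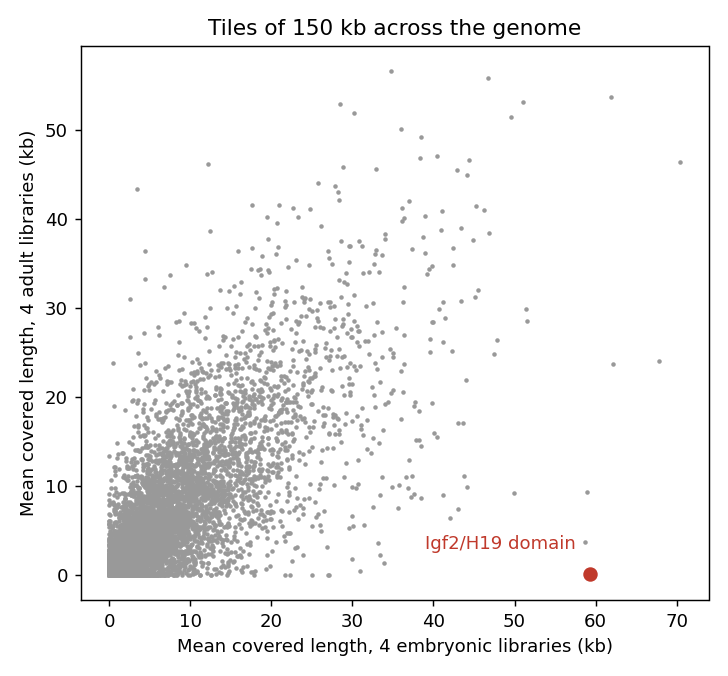
Mean length covered by peaks (kb) in the 4 adult libraries against that in the 4 embryonic libraries, with 1 grey point per 150 kb tile of the genome and the Igf2/H19 domain in red. The domain lies at 59.4 kb on the embryonic axis and next to 0 on the adult axis.

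The embryonic stages were compared to ask whether acetylation of the domain changed between them. This comparison shares the E14.5 and E12.5 libraries with the contrast that led to the domain, but the difference between the stages was not what chose it. Covered length was tested with limma over 20 kb windows of the whole genome, on log2(covered bp + 500) after scaling each library to the mean total covered length. Of 30733 windows, 14.3% were called as longer covered at E14.5 and 11.7% as shorter, at a Benjamini-Hochberg adjusted p under 0.05. None of the 6 windows tested in the domain was called, and 1 had an unadjusted p under 0.05. A permutation of 2 libraries against 2 could not fall under p = 0.333, so no single value was tested that way.

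The window from 149740001 to 149760000, on the 3′ side of H19, was nearly full at both stages and had no room to rise. It was covered over 19.88 and 20 kb at E12.5 and over 20 and 19.94 kb at E14.5. Its change was −0.24 on the log2 scale after scaling (95% interval −0.64 to 0.16, limma adjusted p = 0.366), and 0.00 without scaling. The window that holds the H19 interval, from 149760001 to 149780000, was covered over 6.975 and 9.664 kb at E12.5 and over 10.74 and 10.2 kb at E14.5. The stages did not overlap as deposited, but the scaled change was 0.09 (95% interval −0.13 to 0.32, limma adjusted p = 0.556), and 0.33 without scaling (adjusted p = 0.288). The window that holds most of Igf2, from 149840001 to 149860000, had 10.2 and 10.49 kb at E12.5 and 13.94 and 13.73 kb at E14.5. Here too the stages did not overlap as deposited. The scaled change was 0.16 (95% interval −0.22 to 0.54, limma adjusted p = 0.539), and 0.40 without scaling (adjusted p = 0.0567). It was −0.04 without E12.5 replicate 2 and 0.36 without E12.5 replicate 1. The window with the unadjusted p under 0.05, from 149820001 to 149840000 at the 3′ end of Igf2, went from 0 and 0.787 kb to 3.414 and 0.868 kb, a change of 1.43 ± 0.55 (SE, limma adjusted p = 0.125). That change was 0.75 without E14.5 replicate 1 and 0.80 without E12.5 replicate 1.

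In windows of 10 kb, 1 window of the domain was called as longer covered at E14.5, at the upper end of Igf2. Of 41748 such windows, 13.7% were called as longer covered at E14.5 and 10.7% as shorter. Of the 11 tested in the domain 1 was called in each direction, with 5 at a limma unadjusted p under 0.05. Calls were thus no more frequent in the domain than over the genome in either direction. The window from 149850001 to 149860000, which holds the 5′ end of the Igf2 interval, had 1.112 and 1.31 kb at E12.5 and 4.071 and 3.929 kb at E14.5. The change was 1.19 ± 0.11 on the scaled log2 scale (SE, 95% interval 0.91 to 1.47, limma adjusted p = 0.00112), and it was 1.40 without scaling (adjusted p = 0.00198). With an embryonic library left out in turn the change was 1.104 to 1.276. Neither called 10 kb window was refitted with peaks of −log10 q of at least 10 or with equal numbers of peaks. At these settings the 20 kb window that holds most of Igf2 changed by −0.017 and 0.104, against 0.161. The 20 kb window at the 3′ end of Igf2 changed by 0.435 and 0.455, against 1.432. Whether the 10 kb calls depend on weak peaks was thus not tested. The adult libraries had 0 kb in the 10 kb window from 149850001, so their groups add almost no spread to the fit. With the 4 embryonic libraries alone the change was 1.199 and its limma adjusted p 0.0101. The adult libraries also had 0 kb in every other tested window of the domain but the lowest, at 10 and at 20 kb. The standard errors and intervals given for such windows therefore rest in part on groups without spread.

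Part of this gain lay in the large Igf2 region, whose last peak ended at 149851400 and 149851370 in the E12.5 libraries and at 149852382 and 149852598 in those of E14.5. The rest lay in 3 regions that both libraries of E14.5 had and both of E12.5 lacked. The first, from 149852653 to 149853721 across the 5′ border of the Igf2 interval, had 0.985 and 0.661 kb. The others lay beyond it, from 149853883 to 149854236 with 0.226 and 0.32 kb and from 149855279 to 149855756 with 0.478 and 0.35 kb. A further region of this kind was at the 3′ end of Igf2, from 149837246 to 149838053, with 0.665 and 0.339 kb. Together they were 4 of the 21 regions of the domain, where 7.81% of all merged regions had this pattern. All 4 were weak, with their peaks under the list median of −log10 q.

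Covered length was lower at E14.5 in the 10 kb window from 149730001 to 149740000, between the border region and the H19 region. It held 2.451 and 3.838 kb at E12.5 and 2.532 and 2.138 kb at E14.5, so that the stages overlapped as deposited. The scaled change was −0.54 ± 0.11 (SE, limma adjusted p = 0.0145). Without scaling it was −0.34 with an adjusted p of 0.414, and the call was also lost without E12.5 replicate 2 (0.0553), without E14.5 replicate 1 (0.0653) and without E14.5 replicate 2 (0.0844). The window holds the 1 region that both E12.5 libraries had and both of E14.5 lacked, from 149733647 to 149734849 with 0.452 and 1.203 kb, a pattern of 4.45% of all merged regions. Between H19 and Igf2, the window from 149770001 to 149780000 had 0.995 and 2.881 kb at E12.5 and 4.617 and 4.267 kb at E14.5, a scaled change of 0.94 that was not called (limma adjusted p = 0.055).

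**Figure D5:**
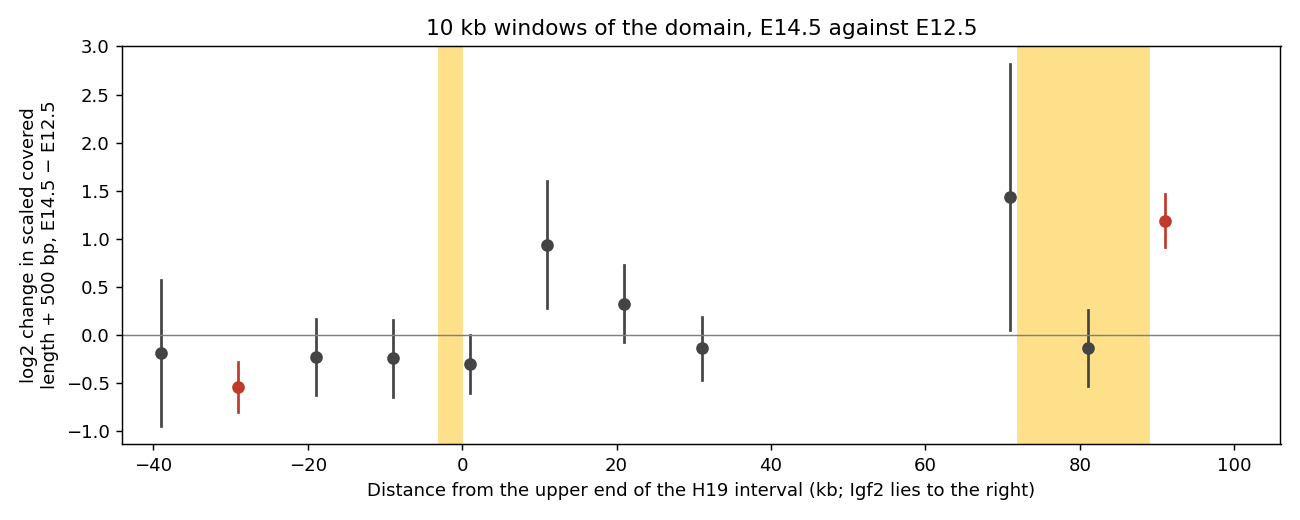
Change in covered length between E12.5 and E14.5 (log2 of scaled covered bp + 500, with 95% intervals from limma) in the 11 tested 10 kb windows of the domain, against the distance of the window's middle in kb from the upper end of the H19 interval. The 2 called windows are red, at 1.19 at the upper end of Igf2 (shaded) and at −0.54 below H19.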

How the data were processed

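H3K27ac ChIP-seq peak lists of 8 libraries were used; the 8 inputs served only as controls of the peak calling. The submitters' processing notes name mm9 and the tools MACS2, SAMtools 1.2, Bowtie 1.1.2 and bcl2fastq 1.8.4. Per the file headers, MACS 2.1.0.20140616 called narrow peaks for each library against its input at q = 0.05, with 51 bp tags, 1 tag kept per position and the larger library scaled down. The deposited lists give peak positions, the pileup signal (coverage) at the summit, −log10 p and −log10 q, and fold enrichment, a ratio to the local background. Those scores are the authors' and ranked or filtered peaks inside their own list only. Counts per region were not used, so the depth of single values is unknown and precision rests on 2 libraries per group.

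Peaks that overlapped or touched were merged over the 8 lists, and a library had a region with at least 1 bp of peak. For 20 kb windows in which 2 or more libraries had a peak, covered bp were scaled by the total covered length and fitted with limma 3.58.1 in R 4.3.3 (lmFit, eBayes with trend and robust, 4 group means, 4 residual degrees of freedom). Windows of 10 kb were an alternative listed with the others, and the settings tried on its 2 called windows were added after seeing the data. The p-values rest on the spread between libraries. The scripts were tested on simulated data. The members, lists and tests were chosen with earlier results of these data known. Regions of at least 2 kb, and those on H19 or Igf2, were to be named; the shorter ones named were chosen after their values were seen. The gene table is on GRCm38.p6, so the neighbouring genes, the other genes of the IGF pathway and cell type markers were not placed on mm9 and are not reported here. No coordinates were converted. Promoter and microRNA sequences are from RefSeq, with 4 promoters matched for Igf2; H19 had no entry.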

Additional observations from a re-analysis of the deposited data

How the results depend on the processing

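Peak lists hold no counts and 2 libraries per group, and an absent peak is only a site under the authors' threshold. Covered length also saturates where peaks fill a window. Widening the domain by 50 kb on each side gave 79.6 kb at E12.5, 82.2 kb at E14.5, 1.064 kb for ISC and 0.87 kb for enterocytes. E14.5 coverage was 59.1 kb with peaks of −log10 q of at least 10 and 59.6 kb with equal numbers of peaks. With 1 replicate left out, the covered length was 51.96 to 59.1 kb at E12.5, 61.24 to 65.14 kb for E14.5, 0 to 0.099 kb for ISC and 0 to 0.309 kb for enterocytes. The 21 regions became 9 with merging within 1 kb, 9 at −log10 q of at least 10 and 10 with equal numbers of peaks. The 7 regions of the embryo became 4 with merging within 1 kb, and stayed 7 under the other 3 settings.

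Over the genome, 4398 windows of 20 kb rose and 3588 fell at E14.5. Without scaling 2094 fell, and at −log10 q of at least 10 2474 rose and 1556 fell. With 1 embryonic library left out, 1916 to 4283 rose and 1551 to 2714 fell, and falls outnumbered rises without E14.5 replicate 1 (2714 against 2038) and without its replicate 2 (2183 against 1916). An arm of 1 library was assumed to vary like the other groups. No 20 kb window of the domain was called under any setting. With 10 kb windows 2 were called. Without scaling, the median log2 change over all windows was 0.064 in place of 0. The labels do not say that equal replicate numbers mark a shared litter or day. Deviations of E12.5 and E14.5 libraries with the same number correlated at −0.176. With the replicate number as a block (replicate block), 4032 windows rose and 3196 fell, none in the domain, and both 10 kb calls held (adjusted p = 0.00514 and 0.0363). They also held with the 4 embryonic libraries alone, a setting chosen after seeing the data (adjusted p = 0.0101 and 0.0313). With the numbers of E14.5 crossed, 4231 rose and 3411 fell.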
